A study of Homo sapiens with 6 samples.

Results

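The Kruppel-like factors (KLFs) described here are 10 genes, KLF2, KLF3, KLF4, KLF5, KLF6, KLF7, KLF9, KLF10, KLF11 and KLF13, taken by gene symbol from a table of 19386 genes. The table holds 18 KLF genes in all. The 10 were chosen by their read counts in the KCl against control comparison, with its results in view, so their own differences in that comparison are given as descriptions, without p-values and as no support for anything else. All 10 passed the filter on low counts, as did 4 further KLF genes (KLF12, KLF14, KLF16 and KLF17).

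The assay was mRNA sequencing with strand-specific libraries of wild-type AC16 cells, a human line labelled as cardiomyocytes and made by fusing adult ventricular heart cells with virus-transformed fibroblasts. There were 3 libraries of cells given 26 mM potassium chloride (KCl) and 3 of untreated control cells, all collected at 16 h. KCl depolarizes the cell membrane and is the arresting agent of cardioplegia solutions, and the series is titled as a study of NRF2 and oxidative stress under it. The labels do not say whether libraries came from separate cultures, so errors and p-values reflect library-to-library spread alone, possibly technical, and both groups are of 1 cell line. In bulk RNA, fewer cells of a type and less RNA per cell cannot be told apart.

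Library totals were 18886525 to 19159312 estimated reads in KCl and 18601977 to 19286588 in control. Of 13 cardiomyocyte markers, 1 reached a mean of 1 TPM (a level corrected for transcript length and library size), the transcription factor gene GATA4. TNNT2, MYL7, NPPA and NKX2-5 had 0 reads in every library, which allows up to 0.161 CPM (reads scaled to library size; the limit covers counting error only). All 8 fibroblast markers passed 1 TPM, with a summed level of 9247 to 9576 TPM in KCl and 8520 to 8812 TPM in control, and 7 of them were higher in KCl. By the test given below, 20.1% of all genes tested were higher. Smooth muscle markers summed to 180.8 to 192.4 TPM in KCl and 176.5 to 199.7 TPM in control, with SMTN higher. Epithelial markers summed to 552.1 to 580.7 TPM in KCl and 388.9 to 399.6 TPM in control, with KRT18 and CDH1 higher. KRT18 alone made up most of that sum, at a mean of 502.8 TPM in KCl and 337.1 TPM in control. CDH1, EPCAM and CLDN4 were below 1 TPM, and KRT8 and KRT19 did not pass. EPCAM, under the low-count filter, had a mean of 0.343 TPM in KCl and 0.740 TPM in control. Endothelial markers (5.50 to 5.91 TPM in KCl, 4.31 to 5.09 TPM in control, with PECAM1 higher) and leukocyte markers (5.89 to 7.02 TPM in KCl, 3.67 to 4.64 TPM in control, with CD14 higher) were low. The part of these marker differences in the KLF values was not tested.

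KLF proteins are transcription factors that bind CACCC and GC-rich DNA through a block of zinc fingers at the C terminus, a block they share with the SP family. KLF2, KLF4, KLF5, KLF6 and KLF7 are mostly described as activators, KLF3 as a repressor that recruits CtBP proteins, and KLF9, KLF10, KLF11 and KLF13 as factors that recruit the SIN3A co-repressor. Many KLF genes respond quickly to serum, shear stress, hormones or TGF-beta, and in mouse hearts KLF4, KLF5 and KLF10 have been linked to growth, metabolism and scarring.

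After KCl, 7 of the 10 genes were higher, 2 were lower and 1 did not pass. The test was edgeR's quasi-likelihood test at a Benjamini-Hochberg adjusted p of 0.05 over 13044 genes, of which 38.0% passed in either direction, 20.1% higher and 18.0% lower. The members' median log2 fold change was 0.33, against -0.005 over all genes tested. The groups did not overlap in CPM at 9 of the 10 genes, with 7 of them higher in KCl and 2 lower. Over all genes tested, 47.8% did not overlap, 24.5% with KCl higher and 23.3% with KCl lower. The share of calls that were higher over all genes was 52.8%, and 40.9% with upper quartile scaling, 41.1% on log2(TPM + 1) and 33.3% on log2(FPKM + 1). Since the list was made with these results known, nothing is read from these counts. The log2 fold changes ran from -0.22 to 0.63, so that every difference was well below 2-fold on the linear scale (the 1.55-fold of KLF7 was the largest among the 10).

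**Figure D1:**
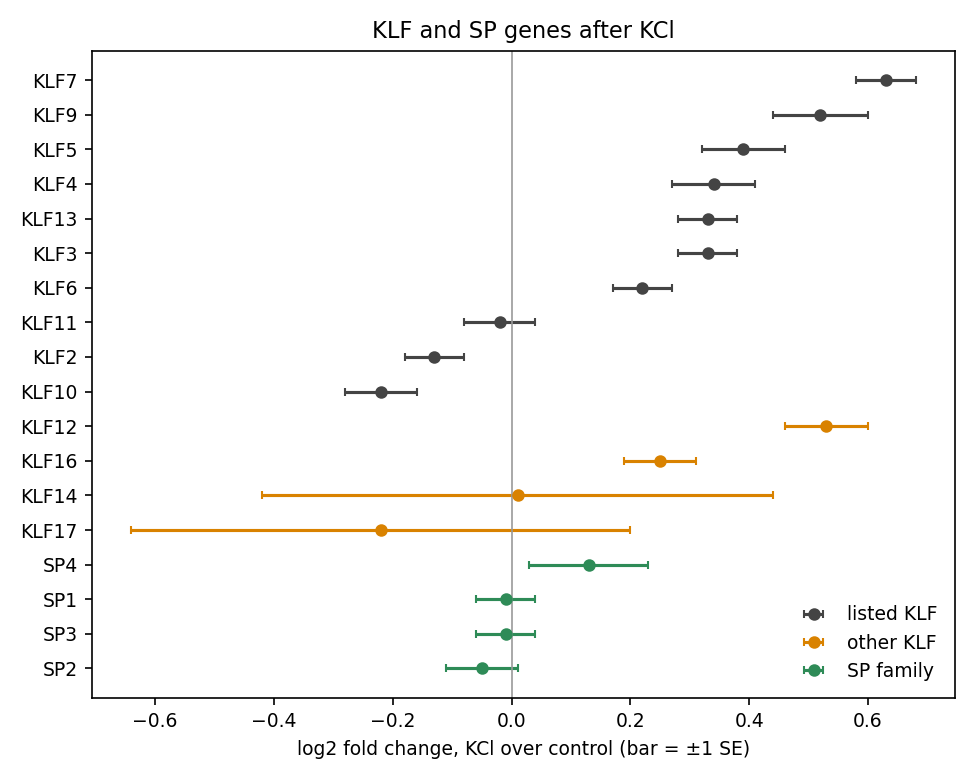
The horizontal axis gives the log2 fold change of KCl over control with bars of 1 SE, for the 10 listed KLF genes, the 4 other KLF genes that passed the low-count filter and the 4 SP genes that did. KLF7 stands highest at 0.63, KLF10 lowest of the listed genes at -0.22, and the SP genes lie between -0.05 and 0.13.

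KLF7 had the largest difference of the 10. It is a regulator best known from neurons and from fat cells, and it lies on GRCh38 chromosome 2 (207074137 to 207167267, minus strand). It had 74.7, 75.3 and 73.7 CPM in the KCl libraries, against 46.7, 48.6 and 49.4 CPM in the control libraries. Every KCl library was above every control library by a gap far wider than the spread in either group. The log2 fold change was 0.63 ± 0.05 (SE), or 1.55-fold, larger in size than that of 93.5% of all genes tested. Its closest relative, KLF6, differed less. KLF6, an immediate early tumour suppressor gene (chromosome 10, 3775996 to 3785281), had 153.9, 140.3 and 150.2 CPM in KCl and 122.6, 126.6 and 131.7 CPM in control. All KCl values were higher, but the nearest values of the groups, 140.3 CPM in KCl and 131.7 CPM in control, lay close. Its log2 fold change was 0.22 ± 0.05.

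KLF4 and KLF2 are related genes that both respond to shear stress in endothelium, downstream of the kinase ERK5 and MEF2 factors. After KCl they went opposite ways. KLF4 (chromosome 9, 107484852 to 107490482) had 50.5, 48.7 and 55.1 CPM in KCl, against 42.3, 36.9 and 42.5 CPM in control. The groups did not overlap, and the log2 fold change was 0.34 ± 0.07. KLF2 (chromosome 19, 16324817 to 16327874) fell to 103.6, 105.5 and 105.9 CPM in KCl, against 120.5, 113.9 and 111.0 CPM in control. The KCl libraries lay close together below the lowest control library, and the log2 fold change was -0.13 ± 0.05. That call was lost without KCl replicate 1 (-0.12), without KCl replicate 3 (-0.14) and without control replicate 1 (-0.10). KLF5, which drives proliferation of smooth muscle and gut epithelium and in the mouse heart controls the PPARA gene, was among the less abundant members. KLF5 (chromosome 13, 73054976 to 73077542) had 31.8, 30.6 and 34.4 CPM in KCl and 24.2, 23.6 and 26.3 CPM in control. The groups did not overlap, with a log2 fold change of 0.39 ± 0.07.

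Short stretches upstream of RefSeq start sites differ in base composition and motif matches between these genes. They are RefSeq promoter windows on build GRCh38.p14, 5' to 3' on the gene's strand, limited to bases outside GENCODE exons. KLF7 and KLF9 are shown as the members with the largest differences, KLF4 and KLF2 as relatives that moved in opposite directions. The stretches are KLF7 chr2:207167268-207167496 (minus strand), KLF9 chr9:70414658-70414907 (minus), KLF4 chr9:107489770-107490019 (minus) and KLF2 chr19:16324576-16324816 (plus), each at the gene's most upstream start in the RefSeq table. The KLF4 stretch lies inside the GENCODE span of KLF4 given above, downstream of that annotation's start and outside its exons. Capitals mark matches on either strand to CACCC, the KLF-type box, GGGCGG, the GC box, CTA followed by any 4 bases and TAG, a MEF2-type element, TGACGTCA, the cyclic AMP response element, and CACGTG, the E-box that clock factors bind.
KLF7: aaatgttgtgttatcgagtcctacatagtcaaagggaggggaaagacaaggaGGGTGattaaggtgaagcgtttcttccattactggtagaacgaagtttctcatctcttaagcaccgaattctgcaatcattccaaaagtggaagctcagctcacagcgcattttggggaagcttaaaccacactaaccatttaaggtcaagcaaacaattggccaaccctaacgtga
KLF9: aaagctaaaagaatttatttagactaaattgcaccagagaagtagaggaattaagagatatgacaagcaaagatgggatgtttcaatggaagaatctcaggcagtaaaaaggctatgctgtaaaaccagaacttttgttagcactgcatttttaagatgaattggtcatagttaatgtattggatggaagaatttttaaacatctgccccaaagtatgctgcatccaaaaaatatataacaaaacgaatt
KLF4: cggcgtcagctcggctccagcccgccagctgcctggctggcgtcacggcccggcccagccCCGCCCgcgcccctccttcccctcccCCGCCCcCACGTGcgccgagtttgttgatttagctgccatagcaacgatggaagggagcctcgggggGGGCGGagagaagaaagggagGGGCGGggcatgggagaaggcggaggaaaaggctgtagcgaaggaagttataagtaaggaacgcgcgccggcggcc
KLF2: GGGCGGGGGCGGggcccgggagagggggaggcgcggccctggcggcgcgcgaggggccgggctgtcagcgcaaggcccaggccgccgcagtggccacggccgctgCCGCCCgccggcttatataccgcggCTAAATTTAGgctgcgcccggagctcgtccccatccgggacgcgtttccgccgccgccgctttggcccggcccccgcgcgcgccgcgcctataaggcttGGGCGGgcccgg

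The KLF2 stretch holds 4 GC boxes and the only MEF2-type match of the 4 stretches, which starts at -120 relative to the RefSeq start site, and 80.0% of the bases of its 250-base window are G or C. The MEF2-type motif was found in 2.36% of the 35116 windows of that length in the RefSeq table, and the GC box in 42.6%. The KLF4 stretch holds 4 GC boxes and 1 E-box (an E-box in 6.34% of windows). The KLF9 window is 32.4% G and C, against a median of 58.0% over all windows, and held none of the 5 motifs. The KLF7 stretch holds 1 CACCC box on the strand opposite the gene, a motif found in 54.7% of windows, and other RefSeq starts of KLF7 have other windows. The cyclic AMP response element was found in 1.65% of windows and in none of the 4 stretches. Of the members, 8 had an entry in the table, with 13 windows. Among the windows not printed, a KLF11 window held a MEF2-type match at -18 and a cyclic AMP response element at -176. KLF12, not a member, had a MEF2-type match at -69. Another KLF7 window was 72% G and C with 4 GC boxes, against 43.2% for the window of the printed stretch. These matches are letters in a window and say nothing of what binds there. CACCC and GGGCGG matches can lie side by side, and overlapping matches were each counted.

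KLF3 (chromosome 4, 38664196 to 38701042), a CtBP-dependent repressor, had 80.9, 83.8 and 82.5 CPM in KCl, against 66.1, 63.1 and 67.7 CPM in control. The groups were apart, and the log2 fold change was 0.33 ± 0.05. Exons of the antisense RNA KLF3-AS1 overlap those of KLF3, and whether counting used the strand is not given in the sources used here. KLF3 in control also varied more in TPM (39.3 ± 5.93, SD, n = 3) than in CPM (65.7 ± 2.33, SD, n = 3), although its KCl libraries stayed above in both.

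KLF9 and KLF13, both of the SIN3A-binding group, were higher in KCl. KLF9 (chromosome 9, 70384597 to 70414624) is induced by glucocorticoid and thyroid hormone and has been reported as a target of NRF2. It had 31.6, 34.2 and 29.3 CPM in KCl, against 21.7, 22.2 and 22.6 CPM in control. The control libraries lay within 1 CPM of each other, the KCl libraries were more spread, and the groups were well apart. Its log2 fold change was 0.52 ± 0.08, larger in size than that of 89.9% of genes tested. KLF13 (chromosome 15, 31326855 to 31435665), a partner of GATA4 in the developing heart of frogs and mice, had 91.8, 98.8 and 96.8 CPM in KCl and 77.3, 70.9 and 81.2 CPM in control. The groups did not overlap, and the log2 fold change was 0.33 ± 0.05.

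KLF10 and KLF11 are the TGF-beta-inducible early genes. Neither was higher. KLF10 fell to 48.6, 53.3 and 55.1 CPM in KCl, against 61.15, 61.32 and 60.00 CPM in control. The control libraries lay close together and the KCl libraries were more spread below them, with a log2 fold change of -0.22 ± 0.06. KLF11 (chromosome 2, 10042849 to 10054836), known for a form of diabetes with early onset, had 39.9, 41.8 and 41.1 CPM in KCl and 41.2, 41.3 and 42.1 CPM in control. The groups overlapped, and its log2 fold change of -0.02 ± 0.06 did not pass. Exons of a gene on the opposite strand also overlap those of KLF11. The estimated counts of all 10 genes were whole numbers in every library and ran from 427 to 2875 reads.

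**Figure D2:**
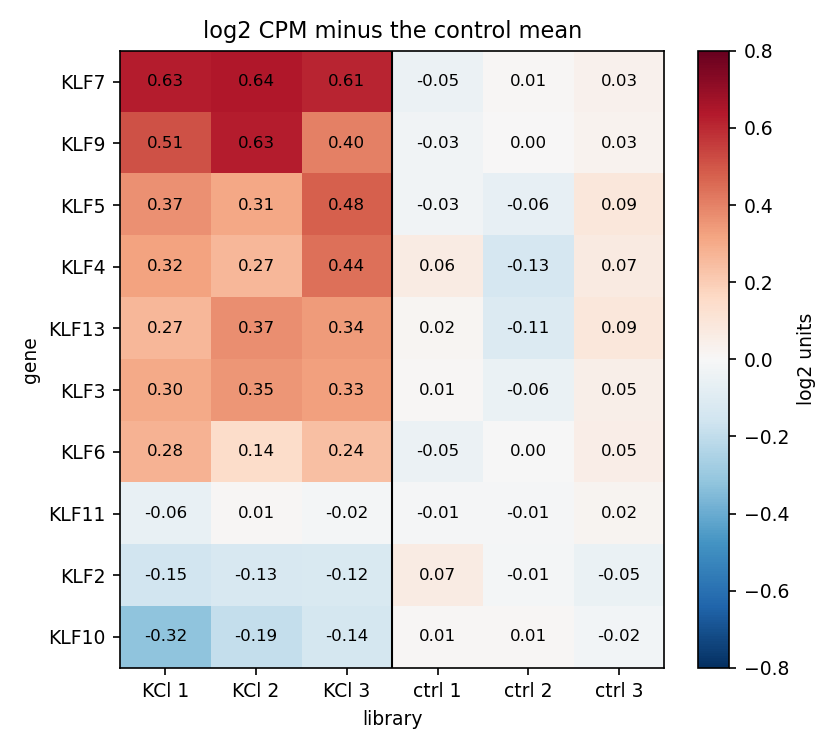
Each cell gives log2 CPM of a KLF gene (rows, ordered by fold change) in 1 library (columns, KCl then control) minus the mean of the 3 control libraries. KLF7 stands at 0.61 to 0.64 in all 3 KCl libraries, whereas KLF9 runs from 0.40 to 0.63 and KLF10 from -0.32 to -0.14.

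Compared per length, the 10 genes kept a broad ranking in level but changed places within it. KLF2 was the most abundant in both groups, at 81.2 ± 2.11 TPM in KCl and 91.2 ± 3.77 TPM in control (SD, n = 3). KLF6 came next, at 68.0 ± 2.00 TPM in KCl and 59.7 ± 2.43 TPM in control. KLF9 was the lowest, at 11.97 to 14.33 TPM in KCl and 9.14 to 9.57 TPM in control. In KCl the order below KLF6 was KLF3, KLF4, KLF10, KLF13, KLF11, KLF7, KLF5 and KLF9. In control it was KLF10, KLF3, KLF4, KLF13, KLF11, KLF5, KLF7 and KLF9. Of the 9 neighbouring pairs in each order, 6 were apart in KCl, without an overlap of their 3 values, and 7 in control. The pairs that overlapped were KLF4 with KLF10, KLF11 with KLF7 and KLF7 with KLF5 in KCl (the last pair was apart in FPKM), and KLF10 with KLF3 and KLF13 with KLF11 in control. KLF10 stood at 33.3 to 38.2 TPM in KCl and 43.2 to 43.7 TPM in control. KLF3 stood at 47.7 to 53.0 TPM in KCl and 33.5 to 45.3 TPM in control, so that KLF3 was above KLF10 in all 3 KCl libraries and not separated from it in control. KLF7, at 21.8 to 23.1 TPM in KCl and 14.38 to 14.99 TPM in control, stood with KLF11 (21.6 to 23.1 TPM in KCl, 22.9 to 23.7 TPM in control) only after KCl.

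**Figure D3:**
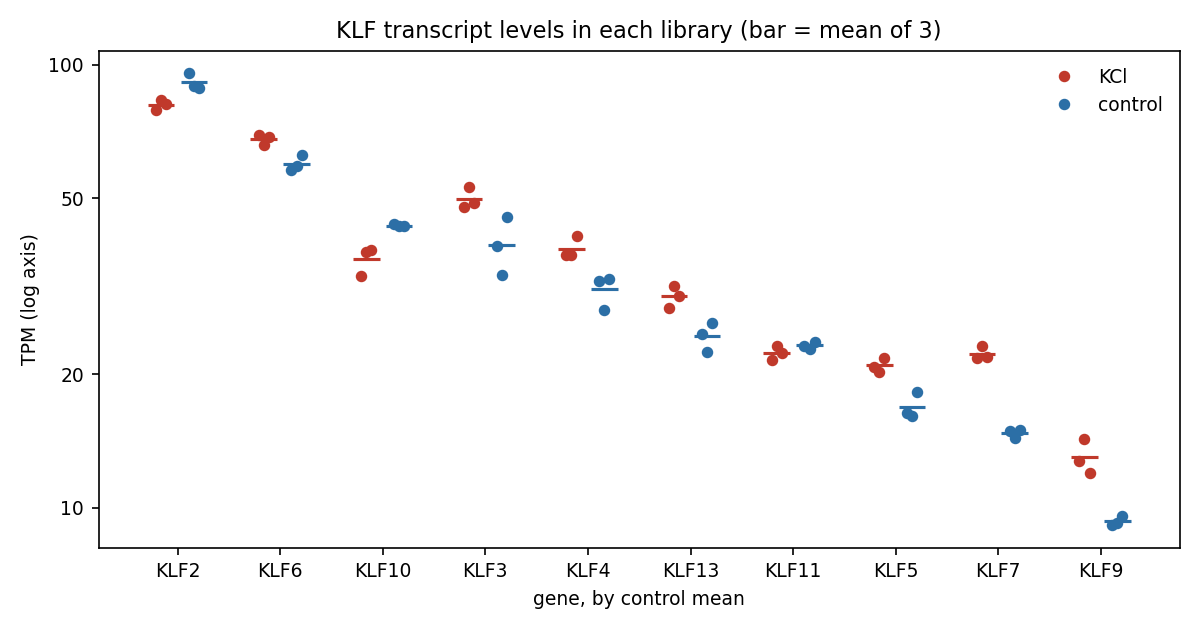
TPM of each KLF gene (log axis) in each library, with KCl points left of control points and bars at the means of 3 libraries. KLF2 is the highest and KLF9 the lowest gene in both groups, and KLF10 is the gene whose control points lie closest together, at 43.2 to 43.7 TPM.

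The summed level of the 10 genes was 371.8, 389.1 and 386.3 TPM in KCl, against 356.8, 338.2 and 365.1 TPM in control. The pool was larger in every KCl library than in any control library, and its makeup differed. The sum and the shares reuse the values of members chosen with this comparison in view and are no separate support. KLF2 made up 21.1% to 21.3% of it in KCl and 24.3% to 26.8% in control. KLF10 made up 8.95% to 9.90% in KCl and 11.8% to 12.8% in control. KLF7 made up 5.66% to 5.94% in KCl and 4.11% to 4.25% in control. Of the level of all 18 KLF genes, the 10 made up 84.8% to 85.6% in KCl and 85.1% to 87.2% in control.

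Ratios between relatives in the same library do not depend on library scaling. They reuse the member values given above and are no separate support. KLF4 was higher and KLF2 lower in every KCl library than in any control library, so their ratios could not overlap. The KLF4 to KLF2 ratio of TPM was 0.471, 0.447 and 0.503 in KCl, against 0.340, 0.313 and 0.370 in control, without overlap. The KLF7 to KLF6 ratio was 0.314, 0.352 and 0.318 in KCl, against 0.258, 0.244 and 0.240 in control, also without overlap. The KLF10 to KLF11 ratio was lower in every KCl library, at 1.54, 1.63 and 1.71 in KCl and 1.88, 1.89 and 1.82 in control. The KLF9 to KLF13 ratio overlapped, at 0.451, 0.453 and 0.398 in KCl and 0.370, 0.413 and 0.366 in control.

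**Figure D4:**
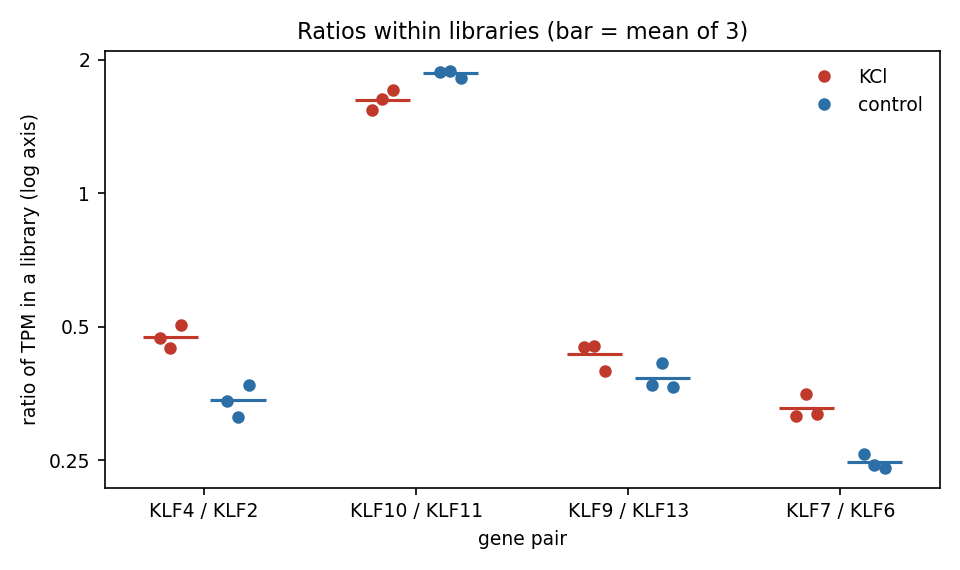
Ratio of the TPM of a pair of related KLF genes within each library (log axis), with KCl points left of control points and bars at the means of 3 libraries. The groups are apart for KLF4 to KLF2, KLF10 to KLF11 and KLF7 to KLF6 and overlap for KLF9 to KLF13.

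Among the 8 KLF genes outside the list, 4 passed the low-count filter, and 2 of these were higher and 0 lower (0 lower also at an unadjusted p of 0.05, by DESeq2 and by limma-voom). The shares over all genes tested, which also apply to each list below, were 20.1% higher and 18.0% lower. KLF12, a CtBP-binding repressor like KLF3, rose to 32.4, 33.8 and 33.4 CPM in KCl, against 24.0, 21.4 and 23.7 CPM in control. The log2 fold change of KLF12 was 0.53 ± 0.07 (edgeR adjusted p = 2.67e-06), and it passed in all 17 alternatives. KLF16, of the SIN3A-binding group, rose to 72.5, 70.5 and 78.6 CPM in KCl, against 67.8, 58.2 and 60.3 CPM in control (log2 fold change 0.25 ± 0.06, edgeR adjusted p = 0.00194). KLF14 (0.860 ± 0.429 CPM in KCl, 0.852 ± 0.516 CPM in control, SD, n = 3) and KLF17 (0.573 ± 0.134 CPM in KCl, 0.666 ± 0.225 CPM in control) did not pass. KLF1, KLF8, KLF15 and KLF18 were under the low-count filter. KLF15, the member best known from adult heart muscle, had 7, 5 and 6 reads in KCl and 7, 7 and 4 reads in control.

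The SP family has zinc fingers that bind the same kind of GC-rich DNA, and its difference from the KLF genes was not tested. Of its 9 genes 4 passed the low-count filter, and 0 of these passed the test in either direction by edgeR, by DESeq2 and by limma-voom, with 0 at an unadjusted p of 0.05. By edgeR, 38.0% of all genes tested passed. SP1, the general GC-box factor, had 96.4 ± 3.87 CPM in KCl and 96.9 ± 5.29 CPM in control, a log2 fold change of -0.01 ± 0.05. SP3 was at -0.01 ± 0.05, SP2 at -0.05 ± 0.06 and SP4 at 0.13 ± 0.10. SP6, with 4, 1 and 4 reads in KCl and 10, 12 and 14 reads in control, was under the filter. It passed as lower with no filter (log2 fold change -1.90, edgeR adjusted p = 0.023). It also passed without KCl replicate 1 (-2.15), KCl replicate 3 (-2.15) or control replicate 1 (-2.02). There SP6 met the filter only through control libraries, where it was higher, so these calls are no support for a difference. SP5, SP7, SP8 and SP9 were also not tested.

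Of 13 co-repressors and co-activators that partner KLF proteins, 3 were higher and 1 lower, and their median log2 fold change was 0.05. CTBP2, a partner of KLF3 and KLF12, rose by 0.16 ± 0.04, a call lost on log2(FPKM + 1) (0.09), and SAP30, a subunit of the SIN3 complex, was lower at -0.36 ± 0.12 with overlapping groups. SIN3A itself did not pass, at 124.1 ± 2.46 CPM in KCl and 127.1 ± 5.62 CPM in control. The SAP30 call was lost without KCl replicate 1, KCl replicate 2 or control replicate 1, and without KCl replicate 1 the list's count was 2. CTBP1, also higher (0.12), was lost with upper quartile scaling and on the TPM and FPKM scales. In those settings HDAC3 passed as lower (-0.13 with upper quartile scaling). The CTBP1 call was also lost without KCl replicate 1, KCl replicate 3, control replicate 2 or control replicate 3. Of 8 ubiquitin ligases reported to act on KLF proteins, 2 were higher and 1 lower, with a median of 0.00. These counts are near the shares over all genes. SMURF2, reported to act on KLF5, rose to 142.6 ± 1.54 CPM in KCl, against 110.1 ± 0.955 CPM in control (log2 fold change 0.37 ± 0.04, edgeR adjusted p = 2.07e-07). FBXO32, a muscle atrophy ligase, rose by 0.37 ± 0.10, a call lost on the TPM and FPKM scales, and SIAH1, reported to act on KLF10, was lower at -0.21 ± 0.07. The SIAH1 call was lost without KCl replicate 1, KCl replicate 3 or control replicate 2.

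Of the path upstream of KLF2 and KLF4, 9 of 10 genes passed the filter, with 2 higher and 3 lower (over all genes tested, 20.1% and 18.0%). Their median was 0.06 on the log2 scale. The lower genes were all kinases of the cascade. MAP3K2 fell to 35.3 ± 0.327 CPM in KCl, against 42.5 ± 2.37 CPM in control (log2 fold change -0.27 ± 0.07, edgeR adjusted p = 0.00208), and MAP2K5, which phosphorylates ERK5, and MAP3K3 were at -0.25 ± 0.06 and -0.15 ± 0.05. MAPK7, the gene of ERK5 itself, did not pass, at 79.2 ± 3.11 CPM in KCl and 73.2 ± 4.59 CPM in control. The higher genes were class IIa histone deacetylases that repress MEF2, HDAC7 (0.28 ± 0.05) and HDAC5 (0.32 ± 0.07). MEF2A (0.02 ± 0.05) and MEF2D (0.06 ± 0.06) did not pass, and MEF2C was under the low-count filter.

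Among 11 glucocorticoid and clock genes linked to KLF9, 10 passed the filter, with 4 higher and 1 lower (over all genes tested, 20.1% and 18.0%). Their median was 0.13. PER1 rose to 43.7 ± 1.24 CPM in KCl, against 28.3 ± 1.80 CPM in control (log2 fold change 0.63 ± 0.07, edgeR adjusted p = 6.45e-08). The clock repressor gene NR1D1 rose by 0.63 ± 0.06, and the glucocorticoid receptor gene NR3C1 and its target TSC22D3 by 0.24 ± 0.05 and 0.32 ± 0.05. FKBP5, another glucocorticoid target, went the other way and fell to 55.7 ± 3.31 CPM in KCl, against 86.7 ± 0.438 CPM in control (log2 fold change -0.64 ± 0.05, edgeR adjusted p = 9.3e-10).

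For KLF10 and KLF11 the upstream genes of TGF-beta signalling were counted. Of 11 genes 6 were higher and 0 lower (0 lower also at an unadjusted p of 0.05, by DESeq2 and by limma-voom), with a median of 0.25. Over all genes tested, 20.1% were higher and 18.0% lower. The ligand gene TGFB2 rose to 73.4 ± 4.02 CPM in KCl, against 45.0 ± 3.02 CPM in control (log2 fold change 0.71 ± 0.06, edgeR adjusted p = 1.32e-09). The receptor gene TGFBR2 rose by 0.37 ± 0.04 and the ligand gene TGFB1 by 0.29 ± 0.05. The other higher genes were SKIL (0.40 ± 0.07), SMAD3 (0.25 ± 0.04) and SMAD4 (0.15 ± 0.05). The list also holds inhibitors of the path, so its counts give no direction of signalling. SMAD7, the inhibitor that KLF10 represses, did not pass, at 13.8 ± 0.797 CPM in KCl and 11.6 ± 0.951 CPM in control. KLF10 itself, given above, was lower. The 16 immediate early genes, a class that KLF2, KLF4, KLF6 and KLF10 can join, had 4 higher and 3 lower with a median of 0.02. These counts are near the shares over all genes. IER3 rose to 545.1 ± 36.4 CPM in KCl, against 323.6 ± 14.8 CPM in control (log2 fold change 0.75 ± 0.05, edgeR adjusted p = 2.22e-12), and MYC rose by 0.25 ± 0.04, while EGR1 fell by 0.57 on the log2 scale (SE 0.07). EGR3, also called lower, had 8, 9 and 13 reads in KCl and 21, 27 and 32 reads in control. It met the low-count filter only through the control libraries, where it was higher, so its call is no support for a difference.

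Reported target genes moved both ways. The lists mix targets reported as activated with targets reported as repressed, so their counts and medians give no direction of KLF activity. Of 8 tested vascular targets of KLF2 and KLF4, 4 were higher and 1 lower (over all genes tested, 20.1% and 18.0%). Their median was 0.40. The chemokine gene CCL2, and ASS1, which supplies arginine for nitric oxide synthesis, rose by 0.76 ± 0.05 and 0.63 ± 0.05. VCAM1, an adhesion gene that KLF2 represses, fell to 8.02 ± 0.940 CPM in KCl, against 12.3 ± 0.733 CPM in control. NOS3 and SELE, which mark the endothelial role of KLF2, were under the low-count filter. Of 11 tested cell cycle and smooth muscle targets of KLF4 and KLF5, 3 were higher and 4 lower, with a median of -0.12. CCND1, the cyclin D1 gene, rose to 190.7 ± 7.55 CPM in KCl, against 128.4 ± 4.58 CPM in control (log2 fold change 0.57 ± 0.05, edgeR adjusted p = 2.38e-10). MYOCD, the smooth muscle co-activator gene that KLF4 represses, rose by 1.12 ± 0.16 from a low level, and by 0.47 in limma on log2(FPKM + 1), where the pseudocount of 1 shrinks low genes. CCNB1 fell by 0.27 on the log2 scale (SE 0.05), and the contractile genes TAGLN, ACTA2 and CNN1 did not pass.

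Of 15 tested targets reported for KLF3, KLF6, KLF9, KLF10, KLF11 and KLF13, 7 were higher and 3 lower. The shares over all genes tested were 20.1% and 18.0%, and the list's median was 0.13. TXNRD2, the mitochondrial thioredoxin reductase gene that KLF9 has been reported to repress, rose to 43.0, 40.6 and 42.0 CPM in KCl, against 24.3, 25.7 and 30.3 CPM in control, a log2 fold change of 0.65 ± 0.08. ENG, the endoglin gene that KLF6 activates, rose by 0.42 ± 0.04. The natriuretic peptide genes NPPA and NPPB, cardiac targets of KLF13, and MAOA, a target of KLF11, were under the low-count filter. CCL5, which KLF13 activates in T cells, was lower, at 7.73 ± 0.261 CPM in KCl and 11.2 ± 1.02 CPM in control.

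**Figure D5:**
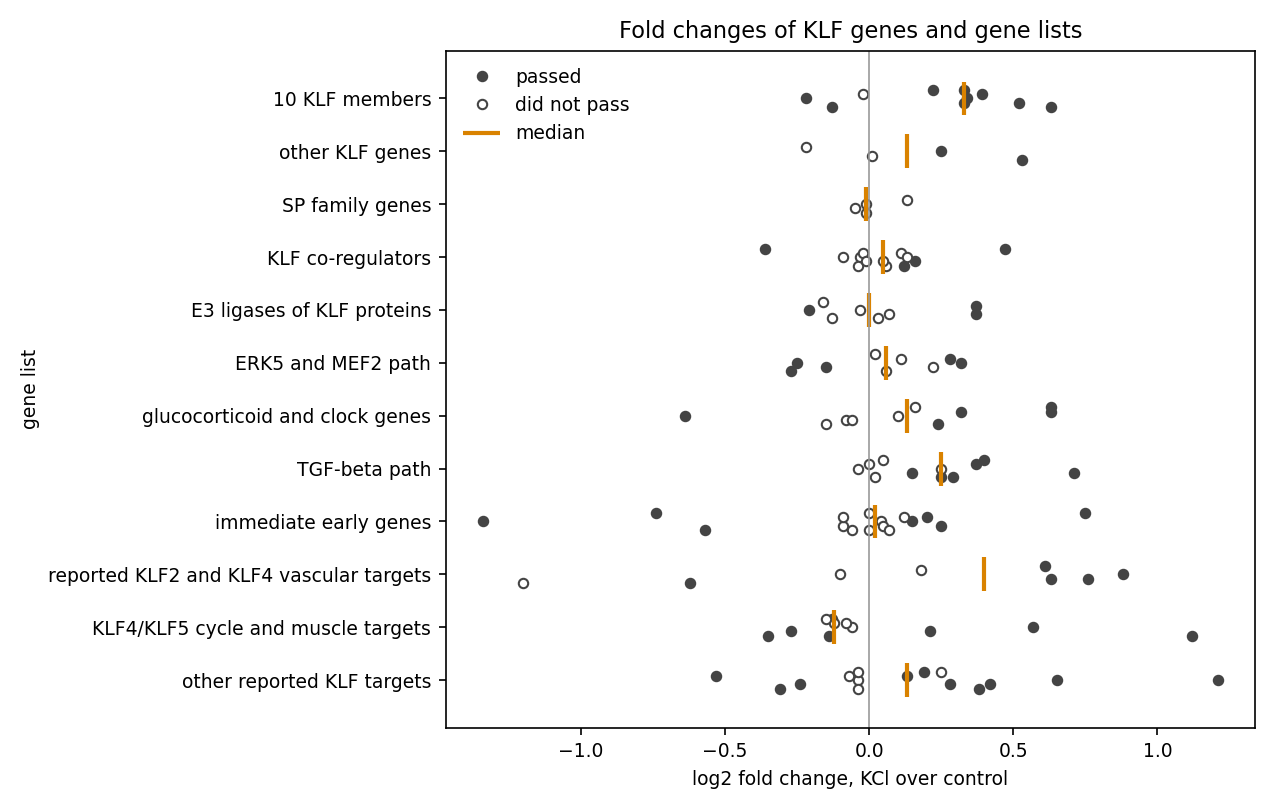
Log2 fold change of KCl over control for each tested gene of the 10 KLF members and of the gene lists, with filled points for genes that passed, open points for those that did not, and a bar at the list's median. The median is 0.33 for the KLF members, 0.25 for the TGF-beta path, -0.01 for the SP family and -0.12 for the cell cycle and smooth muscle targets.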

How the data were processed

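Libraries were grouped by their titles, 3 KCl and 3 control. Per the labels' protocols, RNA extracted with RNeasy kits went into strand-specific mRNA libraries of the DNBSEQ type. Per the submitters' processing notes the build was GRCh38.p12. Names of the aligner and counter were not given in the sources used here. As values, the authors deposited estimated counts per gene without normalization, and TPM and FPKM columns beside them, named so per the file headers. Column codes were tied to groups by the deposited group means (recomputed to within 3.3e-10). Between replicates, chi-square per gene was 2.98 to 4.37, and none was a copy of another. In the table, 27 symbols turned into dates were restored by gene ID.

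Estimated counts were rounded, and R 4.3.3 ran edgeR 4.0.16 on them (TMM scaling, filterByExpr with minimum count 10 and minimum total 15, two-sided quasi-likelihood F test, robust), with Benjamini-Hochberg adjustment over 13044 genes and a threshold of 0.05. The function was tested on simulated data. CPM are TMM-scaled. The SE is the size of the log2 fold change divided by the square root of F. Alternatives used DESeq2 1.42.0, limma 3.58.1, other scalings, filters and units, and each library left out. TPM served for levels. Gene positions came from GENCODE 29 on GRCh38 and promoter windows from RefSeq on GRCh38.p14.

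The members, the gene lists and the tests were chosen with earlier results of these data known. Named genes were all members, every tested KLF and SP gene, and up to 3 genes per other list of lowest p that passed the test; further list members are named to complete a list and were chosen after their values were seen. Some genes of the lists are counted but not reported here by name.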

Additional observations from a re-analysis of the deposited data

How the results depend on the processing

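There were 17 alternatives, of which 6 left out 1 library each. KLF7, KLF9 and KLF12 passed in all 17, and KLF11 in 0. The members were chosen with this comparison in view. Their calls here and below describe dependence on processing only and are no support for a difference. Across all alternatives the log2 fold change ran from 0.50 to 0.64 for KLF7, from 0.38 to 0.57 for KLF9, from -0.19 to -0.10 for KLF2 and from -0.27 to -0.17 for KLF10, and none of the 9 KLF members that passed changed sign, while KLF11 ran from -0.08 to 0.00. Over all genes 4963 passed, 52.8% of them higher, against 40.9% higher with upper quartile scaling, 41.1% on log2(TPM + 1) and 33.3% on log2(FPKM + 1); the members kept 7 higher and 2 lower in these 3 settings.

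Against a fold change of 1.2 (glmTreat), 1091 genes passed (8.36% of those tested), among them 2 KLF members, KLF7 and KLF9. The same setting left 1 of the other KLF genes, 1 co-regulator, 1 ubiquitin ligase, 0 genes of the ERK5 and MEF2 path (0 at an unadjusted p of 0.05, while DESeq2 against no change called 5 in all), 3 glucocorticoid and clock genes, 2 TGF-beta genes, 4 immediate early genes, 2 cell cycle and smooth muscle targets and 4 of the other reported targets. With no low-count filter the SP family had 1 call, SP6. Leaving out 1 library gave 0 to 1 calls in the SP family and 2 to 3 among the co-regulators, and 8 to 9 of the KLF members passed. In the order of KLF levels, FPKM gave 7 neighbouring pairs apart in KCl, against 6 in TPM, the added pair being KLF7 and KLF5, and in control 7 on both scales.

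The sign turned only in genes that never passed. For KLF14 it was -0.03 with upper quartile scaling and -0.01 on log2(FPKM + 1). Without 1 library, KLF14 ran from -0.47 to 0.59, SP1 from -0.05 to 0.02, SP3 from -0.04 to 0.02 and KLF17 from -0.46 to 0.01. Same-numbered KCl and control libraries had correlations of -0.01 to 0.05 between their deviations from the group means. Differently numbered ones had -0.06 to 0.07. No shared effect of the number was seen, which cannot exclude that libraries were prepared in pairs. With the replicate number as a block, 5140 genes passed, 9 of the KLF members among them. The filter with a minimum count of 10 left out KLF1, KLF8, KLF15 and KLF18. With no filter their edgeR adjusted p-values were 0.55, 0.84, 0.98 and 0.46, in that order.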
